A study of Mus musculus with 13 samples.

Results

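Integrins are pairs of an alpha and a beta subunit that span the cell membrane, and 10 subunit genes of leukocytes and platelets were followed here in F4/80+ cells of mouse fetal liver. The genes were taken by name, namely Itgam, Itgb2, Itgal, Itgax, Itga2b, Itgb3, Itga5, Itga6, Itga9 and Itgb7. They are 10 of 23337 genes in the count tables of the EKLF+/+ and EKLF-/- libraries, of 35427 genes joined from the transcripts of the EKLF/GFP libraries and of 54227 genes in the single-cell table. A further 17 subunit genes served as a list for comparison. The study asked how EKLF, the erythroid Krüppel-like factor that Klf1 encodes, shapes the macrophages at the center of erythroblastic islands. Fetal livers were dissected at E13.5. The 3 EKLF+/+ and 3 EKLF-/- libraries came from F4/80+ cells of wild type and EKLF-null embryos, sorted by flow cytometry. The 3 EKLF/GFP+ and 3 EKLF/GFP- libraries came from wild type embryos that carry pEKLF-GFP, a single copy of the EKLF promoter placed before a green fluorescent protein gene, so that GFP reports promoter activity and not EKLF protein. The single-cell library was 1 EKLF+/+ sample, made from 2 pooled littermate embryos by magnetic bead selection for F4/80 in the presence of a peptide that blocks the binding of Icam4 to αv integrin. All samples are labelled C57BL/6, whereas the study's reagent list places the EKLF-null line on the 129S4/SvJae background.

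Integrins bind proteins of the extracellular matrix or counter-receptors on other cells, and they switch to a high-affinity state when talin and kindlin bind the beta tail. Leukocytes carry the beta2 family, platelets and their precursors carry αIIbβ3, and many cell types carry receptors for fibronectin and laminin. In the erythroblastic island, macrophage Vcam1 binds integrin α4β1 on erythroblasts and erythroblast Icam4 binds αv integrin on the macrophage.

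Bulk values are counts of reads on a gene, normalized for library size but not for gene length. Library totals and values given as TPM or per kilobase of exon are the exceptions. The EKLF+/+ libraries held 10695514, 15362161 and 12503257 counts on genes and the EKLF-/- libraries 13879718, 13382180 and 12592603. Estimated counts summed to 27555637, 25378569 and 25474963 in EKLF/GFP+ and to 26909207, 28735267 and 22721819 in EKLF/GFP-. The single-cell table held 70127858 molecules (UMIs) in 3093 cells, with a median of 18565 per cell. The study describes the bulk replicates as biological, without saying which embryos or litters they came from, so p-values measure the spread between these libraries. RNA of EKLF/GFP+ cells was isolated with an Agilent Nanoprep kit, since cells were few. Its integrity number was lower than those given for EKLF+/+ and EKLF-/-, and none is given for EKLF/GFP-. Trizol was used for the other bulk samples, so the kit and the GFP group cannot be told apart.

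Klf1 itself differed as the labels state. It fell by 2.53 on the log2 scale in EKLF-/-, and it was 1.35 higher in EKLF/GFP+ (quasi-likelihood test of edgeR, Benjamini-Hochberg adjusted p 7.22e-06 and 0.000319). Adgre1, which encodes F4/80, had 1575, 1275 and 2207 normalized counts in EKLF/GFP- (in replicate order) against 954, 2155 and 2725 in EKLF/GFP+. The ranges of both groups overlapped. EKLF+/+ replicate 2 stood apart from the other EKLF+/+ libraries. Col1a1, a collagen of mesenchymal cells, had 174, 516 and 57.4 normalized counts in EKLF+/+ replicates 1 to 3. Results of the members in EKLF-/- are therefore also given without that library. EKLF/GFP+ replicate 1 had the lowest sum over 13 macrophage markers, at 185.7 CPM against 403.1 and 512.1 in replicates 2 and 3.

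The members lie on 6 chromosomes of GRCm38. Itgal (chr7:127296260-127335138), Itgam (chr7:128062640-128118491) and Itgax (chr7:128129547-128150657) lie near each other on the plus strand of chromosome 7. Itgb2 (chr10:77530252-77565708, plus strand) encodes their shared beta chain. Itga2b (chr11:102453297-102470122, minus strand) and Itgb3 (chr11:104608000-104670476, plus strand) encode the platelet pair. Itga5 (chr15:103344286-103366763, minus strand), Itga6 (chr2:71745616-71858416, plus strand) and Itga9 (chr9:118606690-118901003, plus strand) encode alpha chains that pair with β1. Itgb7 (chr15:102215995-102231944, minus strand) encodes a beta chain that pairs with α4 or αE.

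Loss of EKLF was asked first, by comparing EKLF-/- with EKLF+/+. Itgb2 rose 1.44-fold, and no other member passed the test. All 10 members had passed the filter on low counts, which keeps a gene that reaches 10 counts in 3 or more of the 6 libraries. Of the 10, 1 was called higher, against 9.72% of all 12753 genes tested (20.3% in either direction). With a library left out, all genes lower in EKLF-/- numbered 575 to 1889 and all genes higher in EKLF-/- 346 to 1730, so these shares depend on single libraries. By the quasi-likelihood test of edgeR 0 members were called lower, against 10.6% of all genes, with 1 member (Itgb3) lower at an unadjusted p under 0.05, and DESeq2 also called 0. The median log2 fold change was 0.00 over the members and 0.02 over all genes. In EKLF-/-, 1 member lay wholly below EKLF+/+ (Itga5) and 1 wholly above (Itgb2), against 23.4% and 22.9% of all genes.

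The beta2 family holds the receptors by which leukocytes bind Icam proteins and complement. Itgb2 had 976, 1383 and 961 normalized counts in EKLF+/+ (in replicate order) against 1479.8, 1758 and 1541 in EKLF-/-. Each EKLF-/- library lay above each EKLF+/+ library, and the highest value was that of EKLF-/- replicate 2. The change on the log2 scale was 0.52 (standard error 0.16, Benjamini-Hochberg adjusted p 0.047 from the quasi-likelihood test of edgeR). The call was lost without EKLF+/+ replicate 1 or 3, without EKLF-/- replicate 2 or 3, and with a filter of 10 counts in every library, and the log2 fold change then lay between 0.41 and 0.55. Without EKLF+/+ replicate 2 it was 0.70 for Itgb2, and the call was kept. Bulk counts cannot tell apart more RNA per cell from more cells of a type that carries it.

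Itgam, the alpha chain of CD11b/CD18, had 1059, 1666 and 1125 normalized counts in the EKLF+/+ libraries and 1502, 1508 and 1671 in the EKLF-/- libraries. EKLF+/+ replicate 2 lay among the EKLF-/- values, and the other 2 EKLF+/+ libraries lay below them. With all libraries the log2 difference was 0.28 (standard error 0.17, Benjamini-Hochberg adjusted p 0.251 from the quasi-likelihood test of edgeR), and without EKLF+/+ replicate 2 it was 0.49 (adjusted p 0.0498). Without EKLF+/+ replicate 1 or 3 the Itgam difference was 0.15 or 0.17. Itgal, the alpha chain of LFA-1, had 1757, 2237 and 1866 in EKLF+/+ and 2167, 2258 and 2051 in EKLF-/- normalized counts. Its groups overlapped, with a log2 difference of 0.14 (standard error 0.12), and without EKLF+/+ replicate 1, 2 or 3 it was 0.07, 0.23 or 0.09 for Itgal. Itgax, the alpha chain of CD11c, was scarce, with 37.4, 45.2 and 27.1 in EKLF+/+ and 29.9, 35.9 and 34.2 in EKLF-/- normalized counts. These groups overlapped as well, and the log2 difference of -0.14 became 0.03 without EKLF+/+ replicate 2.

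The platelet pair αIIbβ3 binds fibrinogen and von Willebrand factor, and its subunits lay in opposite directions in EKLF-/-, neither past the test. Itga2b had 1132, 2129 and 1215 normalized counts in EKLF+/+ (in replicate order) against 2002, 2119 and 2173 in EKLF-/-. EKLF+/+ replicate 2 was at the level of EKLF-/-, and the other 2 EKLF+/+ libraries were below it. The log2 difference was 0.49 (standard error 0.22, Benjamini-Hochberg adjusted p 0.139 from the quasi-likelihood test of edgeR), and without EKLF+/+ replicate 2 it was 0.82 and passed the test (adjusted p 0.00929). Without EKLF+/+ replicate 1 or 3 the Itga2b difference was 0.32 or 0.34. Itgb3 had 1066, 2086 and 1352 in EKLF+/+ and 1087, 1006 and 986 in EKLF-/- normalized counts. EKLF+/+ replicate 1 lay within the EKLF-/- values and replicate 2 was far above them. Its log2 difference was -0.55 (standard error 0.22, Benjamini-Hochberg adjusted p 0.101 from the quasi-likelihood test of edgeR) and -0.26 without EKLF+/+ replicate 2. Whether the platelet subunits differ from each other in their response was not tested.

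Among the alpha chains of matrix receptors, Itga5, the fibronectin receptor subunit, had 454, 491 and 448 normalized counts in EKLF+/+ and 395, 434 and 386 in EKLF-/-. Each EKLF-/- library lay below each EKLF+/+ library, by a small margin. Its log2 difference of -0.20 (standard error 0.11) did not pass (Benjamini-Hochberg adjusted p 0.231 from the quasi-likelihood test of edgeR). Itga6, a laminin receptor subunit, had 665, 939 and 635 in EKLF+/+ and 637, 322 and 557 in EKLF-/- normalized counts. The low value was that of EKLF-/- replicate 2, and the groups overlapped narrowly, with a log2 difference of -0.56 (standard error 0.25) that did not pass. Itga9, which binds tenascin and other matrix proteins, ranged from 136 to 230.5 normalized counts over the 6 libraries. Itgb7, the beta chain of the gut-homing receptor α4β7, ranged from 248 to 381. For Itga9 and Itgb7 the groups overlapped, with log2 differences of -0.21 and 0.24. Without EKLF+/+ replicate 2 the differences were -0.18 for Itga5, -0.38 for Itga6, -0.08 for Itga9 and 0.33 for Itgb7, and the test was not passed. Over all single libraries left out, the difference ranged from -0.76 to -0.34 for Itga6. It ranged from -0.47 to -0.08 for Itga9 and from 0.08 to 0.33 for Itgb7.

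EKLF promoter activity was asked next, by comparing EKLF/GFP+ with EKLF/GFP-. The beta2 family members were several-fold lower in EKLF/GFP+ cells, and both platelet subunits were higher. Of the 10 members, 7 fell, against 25.8% of all 14249 genes tested, and 2 rose, against 18.9% (44.7% in either direction). Itga9 did not pass the test. All 10 members passed the filter on low counts here too. The median log2 fold change was -1.14 over the members and -0.01 over all genes. The same 7 members lay wholly below and the same 2 wholly above EKLF/GFP- in all 3 libraries, against 30.5% and 25.2% of all genes. In these sorted cells, fewer cells of a type and less RNA per cell cannot be told apart.

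Itgam, Itgb2, Itgal and Itgax each fell. Itgam had 3737, 3264 and 3935 normalized counts in EKLF/GFP- (in replicate order) against 620.2, 838 and 1280.4 in EKLF/GFP+. The lowest EKLF/GFP- library held far more counts than the highest EKLF/GFP+ library. Its change on the log2 scale was -2.0 (standard error 0.24, Benjamini-Hochberg adjusted p 0.000305 from the quasi-likelihood test of edgeR). Itgb2 had 2711, 2501 and 2718 in EKLF/GFP- and 772, 840.0 and 1195 in EKLF/GFP+ normalized counts, and it fell by 1.5 on the log2 scale (standard error 0.16). Itgal had 3424, 2825 and 3754 in EKLF/GFP- and 677, 969 and 1316 in EKLF/GFP+, and it fell by 1.76 (standard error 0.23). In each of these 3 genes EKLF/GFP+ replicate 1 was the lowest library and replicate 3 the highest of its group. Itgax had 99.5, 90.1 and 155 normalized counts in EKLF/GFP- and 12.3, 15.2 and 21.8 in EKLF/GFP+, and it fell by 2.8 (standard error 0.32), the largest fall among the members and also the one with the fewest counts. The p-values of Itgb2, Itgal and Itgax were 0.000169, 0.000458 and 0.000238, adjusted after Benjamini-Hochberg in the quasi-likelihood test of edgeR.

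Both platelet subunits rose in EKLF/GFP+. Itga2b had 1148, 1184 and 1143 normalized counts in EKLF/GFP- and 1288, 1534 and 1896 in EKLF/GFP+. In these counts the EKLF/GFP- libraries were nearly equal, and all 3 EKLF/GFP+ libraries lay above them with a wider spread. In TPM, Itga2b had 22.7, 13.7 and 22.3 in EKLF/GFP- and 26.6, 26.6 and 30.5 in EKLF/GFP+. There the groups did not overlap either, but the wider spread was that of EKLF/GFP-. The change on the log2 scale was 0.44 (standard error 0.13, Benjamini-Hochberg adjusted p 0.0285 from the quasi-likelihood test of edgeR). This call was lost when any library other than EKLF/GFP+ replicate 1 was left out, with values of 0.30 to 0.48. Itgb3 had 1119, 1019 and 1221 in EKLF/GFP- and 1369, 1933 and 1926 in EKLF/GFP+ normalized counts. It rose by 0.64 (standard error 0.14, Benjamini-Hochberg adjusted p 0.00784 from the quasi-likelihood test of edgeR), without overlap of the groups, and passed with each library left out in turn.

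Itga6 and Itga5 fell with little spread between replicates. Itga6 had 2181, 1904 and 2008 normalized counts in EKLF/GFP- and 636, 673 and 802 in EKLF/GFP+, and its log2 change of -1.53 (standard error 0.11) had the smallest Benjamini-Hochberg adjusted p of the members, 2.88e-05 from the quasi-likelihood test of edgeR. Itga5 had 885, 926 and 802 in EKLF/GFP- and 512, 506 and 494 in EKLF/GFP+, with a log2 change of -0.79 (standard error 0.09, Benjamini-Hochberg adjusted p 0.000203 from the quasi-likelihood test of edgeR). In both genes all EKLF/GFP+ libraries lay below all EKLF/GFP- libraries. Itga9 had 387, 313 and 429.6 in EKLF/GFP- and 181, 344 and 489 in EKLF/GFP+ normalized counts, so the EKLF/GFP+ libraries spread over the whole EKLF/GFP- range and beyond it on both sides. The log2 difference was -0.16 (95% interval -0.89 to 0.58), and 0.18 without EKLF/GFP+ replicate 1, the library with the lowest macrophage marker sum. Itgb7 had 404, 346 and 349 in EKLF/GFP- and 219, 208 and 292 in EKLF/GFP+ normalized counts. It fell by 0.61 (standard error 0.16, Benjamini-Hochberg adjusted p 0.0135 from the quasi-likelihood test of edgeR), a call that was lost without EKLF/GFP+ replicate 2, at -0.50, or without EKLF/GFP- replicate 1, at -0.55, and with limma on the authors' normalized counts.

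**Figure D1:**
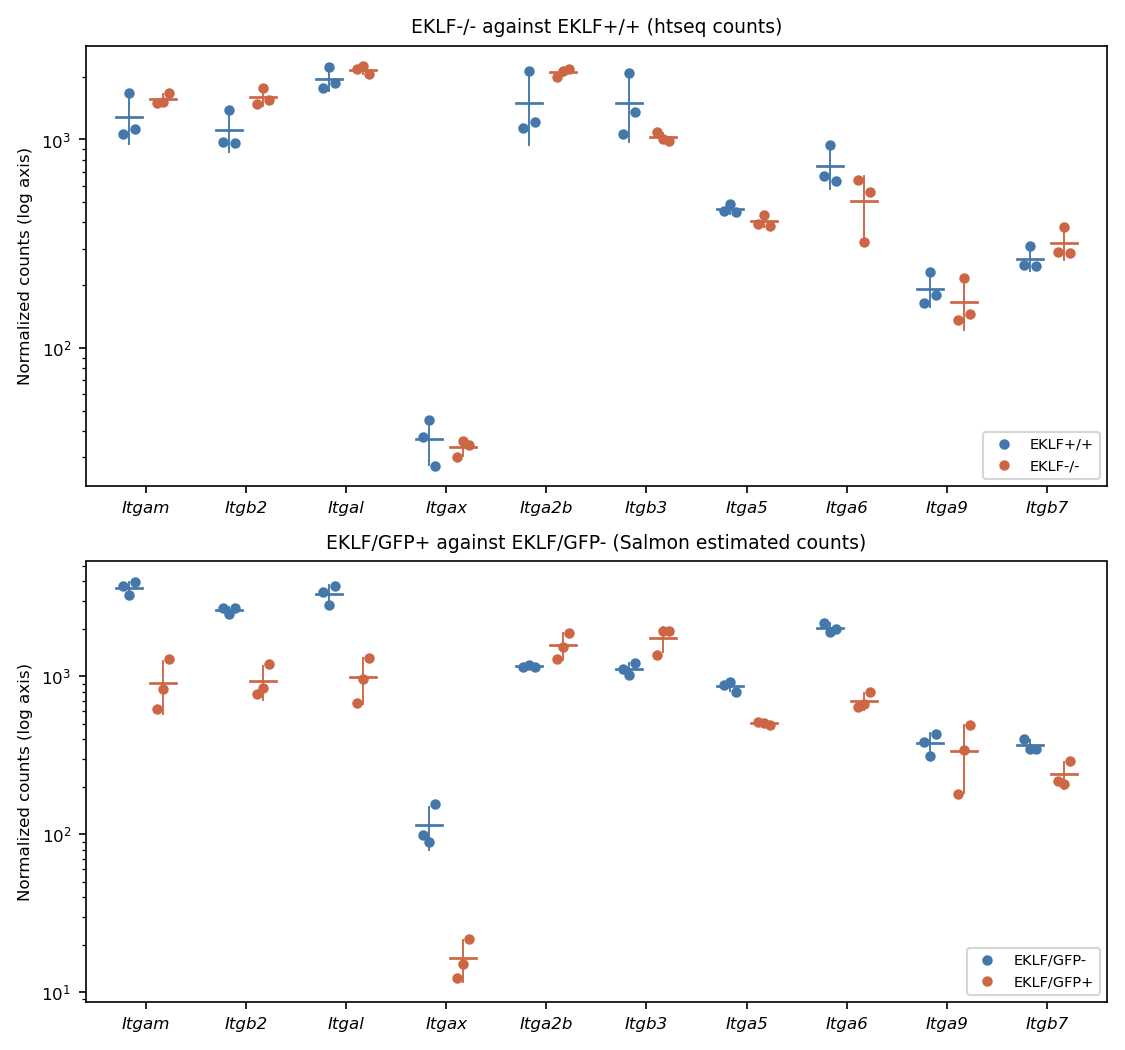
Normalized counts (log axis) of the 10 members in each library, with points for libraries, horizontal bars for group means and vertical bars for 1 SD (n = 3). In EKLF-/- against EKLF+/+ the groups lie close together, with Itgb2 at 976, 1383 and 961 against 1479.8, 1758 and 1541, while in EKLF/GFP+ the values of Itgam, Itgb2, Itgal, Itgax, Itga5, Itga6 and Itgb7 lie below EKLF/GFP- and those of Itga2b and Itgb3 above.

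To order the members by bulk level, values per length were used. In TPM from Salmon, the order of the members in EKLF/GFP- was Itgam at 69.7 ± 23, Itgb2 at 64.3 ± 8.99, Itgal at 24.7 ± 5.85, Itga2b at 19.6 ± 5.09, Itgb7 at 13.8 ± 2.97, Itga6 at 12.8 ± 1.04, Itga9 at 8.08 ± 0.887, Itga5 at 7.91 ± 0.967, Itgb3 at 4.59 ± 0.428 and Itgax at 0.924 ± 0.467 (means with SD, n = 3). Neighbours that did not differ beyond the SD were Itgam and Itgb2, Itgal and Itga2b, Itgb7 and Itga6, and Itga9 and Itga5. In EKLF/GFP+ the order opened with Itga2b at 27.9 ± 2.22 TPM, before Itgb2 at 18.9 ± 3.74 and Itgam at 15.6 ± 8.28, of which Itgb2 and Itgam did not differ beyond the SD, nor did Itgam and the next gene, Itgb7. Itgb7, Itgal, Itga9 and Itgb3 followed at 8.39, 7.82, 7.06 and 6.84 mean TPM, within the spread of each other. Itga5 at 4.28 ± 0.635, Itga6 at 3.88 ± 0.529 and Itgax at 0.0945 ± 0.0294 TPM closed it, the first 2 of them within the SD of each other. Among the subunits that pair with the members, Itgb1 had 187 ± 10.4 TPM in EKLF/GFP+ and 190.1 ± 16.6 in EKLF/GFP-, and Itga4 had 126 ± 0.499 and 108 ± 5.11.

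In the EKLF+/+ libraries, normalized counts per kilobase of exon were 363 for Itgb2, 297 for Itgal, 274 for Itga2b, 256 for Itgam and 254 for Itgb3, which did not differ from their neighbours beyond the SD. The other members were lower, at 96.9 for Itgb7, 94.1 for Itga5, 82.7 for Itga6, 24.9 for Itga9 and 7.61 for Itgax, and of these Itgb7, Itga5 and Itga6 lay within the SD of their neighbours. This scale uses the union of all annotated exons and cannot be set against TPM.

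The partner subunits differed among themselves. Itgb1, the beta chain of the α4, α5, α6 and α9 receptors, had 11238, 10878 and 10813 normalized counts in EKLF/GFP- and 12297, 11916 and 11706 in EKLF/GFP+. Its log2 difference of 0.13 (standard error 0.07) did not pass (Benjamini-Hochberg adjusted p 0.181 from the quasi-likelihood test of edgeR), although DESeq2 called it higher. Itga4, the Vcam1 receptor subunit, had 16245, 15659 and 15672 in EKLF/GFP- and 18004, 19941 and 18455 in EKLF/GFP+, and it rose by 0.25 (Benjamini-Hochberg adjusted p 0.0315 from the quasi-likelihood test of edgeR), a call that was lost with the replicate number as a block and when any of 5 libraries was left out. In EKLF-/- the Itga4 values were 5693, 2398 and 4208 against 7674, 6291 and 6204 in EKLF+/+, with no overlap. That log2 difference of -0.71 (standard error 0.27) did not pass (Benjamini-Hochberg adjusted p 0.0916 from the quasi-likelihood test of edgeR), whereas DESeq2 called it lower (adjusted p 0.0281), as did edgeR with the replicate number as a block and without EKLF-/- replicate 1 or 2. Itgav, an alpha chain that can also pair with β3 and a receptor of Icam4, had 1683, 1405 and 1595 in EKLF/GFP- and 550.1, 605 and 813 in EKLF/GFP+, and it fell by 1.25.

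Of the 17 other subunits, 11 were tested in EKLF-/- and 2 were lower, Itga1 and Itga2, against 10.6% of all genes. In EKLF/GFP+ 9 were tested, with 5 lower and 1 higher, against 25.8% and 18.9% of all genes. Itga1, a collagen receptor subunit, had 128, 155 and 136 normalized counts in EKLF+/+ and 73.5, 62.9 and 81.5 in EKLF-/-, with a log2 change of -0.95 (standard error 0.18). In the EKLF/GFP libraries it had 856, 842 and 620.0 in EKLF/GFP- and 86.2, 76.9 and 78.9 in EKLF/GFP+, and it fell by 3.26 (standard error 0.16). Itgb2l, a beta2-like gene, had 606, 607 and 639 in EKLF/GFP- and 30.3, 55.2 and 103 in EKLF/GFP+, with a log2 change of -3.3. In EKLF-/- Itgb2l lay above EKLF+/+ in each library, at a log2 difference of 0.92 that did not pass (Benjamini-Hochberg adjusted p 0.0619 from the quasi-likelihood test of edgeR).

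Ligands were followed as a list of 32 genes. In EKLF-/- 6 of 26 tested were lower and 1 was higher, and in EKLF/GFP+ 11 of 28 were lower and 3 higher. The shares over all genes were 10.6% lower and 9.72% higher in EKLF-/-, and 25.8% and 18.9% in EKLF/GFP+. Icam4, the erythroid counter-receptor of αv, had 1706, 1508 and 1724 normalized counts in EKLF+/+ and 390.1, 464 and 371 in EKLF-/-. It fell by 2.01 (standard error 0.12) in EKLF-/-, and it was 1.57 higher (standard error 0.11) in EKLF/GFP+, where it had 1368, 1562 and 1534 against 475, 577 and 452. Col4a1, a basement membrane collagen, fell by 0.73 in EKLF-/-, and C3, the complement protein whose fragment iC3b binds CD11b/CD18, rose by 0.65. In EKLF/GFP+ the largest falls were those of Adam15 at -2.93, C3 at -2.46 and Emilin1, a ligand of α4 and α9 integrins, at -2.06. Vwf, a ligand of αIIbβ3, rose by 0.94. Icam1, a beta2 ligand, fell by 1.81 in EKLF/GFP+ and had a log2 difference of 0.05 in EKLF-/-. Fn1, fibronectin, fell by 0.63 in EKLF/GFP+, and in EKLF-/- its difference of -0.61 did not pass (Benjamini-Hochberg adjusted p 0.0807 from the quasi-likelihood test of edgeR). Vcam1, the α4β1 ligand, had 693, 608 and 961 in EKLF/GFP- and 728, 1383 and 2091 in EKLF/GFP+, with overlap, and passed the edgeR test in neither comparison. The study, which used DESeq2, instead reports Vcam1 as enriched in EKLF/GFP+.

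Genes of activation and linkage to actin made a list of 39. In EKLF-/- 1 of 36 tested was lower and 4 were higher, against 10.6% and 9.72% of all genes. In EKLF/GFP+ 18 of 37 were lower and 5 higher, against 25.8% and 18.9%. Fermt3, kindlin-3 of blood cells, had 4408, 5450.4 and 4533 normalized counts in EKLF+/+ and 6622, 6991 and 6814 in EKLF-/-, and it rose by 0.51 (standard error 0.12). In EKLF/GFP+ its log2 difference was -0.19, which did not pass (Benjamini-Hochberg adjusted p 0.0592 from the quasi-likelihood test of edgeR). Lyn, a Src-family kinase, rose by 0.64 and Rsu1, a component of the ILK complex, by 0.44 in EKLF-/-. Parvb, a parvin of that complex, fell by 0.55 in EKLF-/- and was 1.53 higher in EKLF/GFP+, while its blood cell relative Parvg fell by 2.3 in EKLF/GFP+. Fgr, another Src-family kinase, fell by 2.04 there and Raph1, lamellipodin, by 1.88. Ptk2, the focal adhesion kinase, rose by 1.15 and Lims1, PINCH-1, by 0.29. Rasgrp2, the Rap1 exchange factor that activates αIIbβ3, fell by 1.69 in EKLF/GFP+, with 1578, 1393 and 1672 in EKLF/GFP- and 364, 504 and 573 in EKLF/GFP+ normalized counts. Tln1, talin, differed by -0.09 in EKLF-/- and -0.18 in EKLF/GFP+ and passed in neither.

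Markers of other blood cells moved with these results. In EKLF/GFP+, where the beta2 genes fell, 7 of 7 monocyte markers, 9 of 9 neutrophil markers and 6 of 6 markers of granulocyte-monocyte progenitors fell as well, and 2 of 12 macrophage markers did, against 25.8% of all genes lower and 18.9% higher. Dendritic cell markers fell in 5 of 6 cases, lymphoid markers in 6 of 6 and progenitor markers in 6 of 6. Monocyte markers summed to 938.8, 829.9 and 954.9 CPM in EKLF/GFP- and to 65.13, 95.64 and 97.4 in EKLF/GFP+, with Plac8 the most abundant. Neutrophil markers summed to 1568, 1669 and 2230 in EKLF/GFP- and to 122.9, 249.1 and 317.7 in EKLF/GFP+, led by S100a9. No marker of the monocyte, neutrophil or granulocyte-monocyte progenitor lists was at 0 in all libraries, and of the lymphoid list Cd3e was. In the same cells 9 of 10 megakaryocyte markers rose and 1 fell, and the sum of the list was 99.98, 102.5 and 121.7 CPM in EKLF/GFP- and 172.6, 253.9 and 232 in EKLF/GFP+, with Pf4 the most abundant. Erythroid markers rose in 10 of 10 cases. Endothelial markers, of a class with high Itga6 and Itga5 in the single-cell library, fell in 5 of 7 cases, from 157.6, 147.5 and 169.5 to 44.32, 62.48 and 71.43 CPM. The part of these cell types in the integrin results was not tested.

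In EKLF-/-, where Itgb2 rose and 10.6% of all genes were lower and 9.72% higher, 3 of 9 neutrophil markers were higher and 1 lower, with sums of 1708, 2702 and 2339 CPM in EKLF+/+ and 2907, 5193 and 3743 in EKLF-/-. Of the granulocyte-monocyte progenitor markers 4 of 6 were higher, with Mpo the most abundant, and of the monocyte markers 1 of 7, Ccr2. The highest of these sums was in EKLF-/- replicate 2, which also had the most Itgb2. Of the 10 megakaryocyte markers 1 was higher and 1 lower, near the shares of all genes, with sums over the list of 186.5, 310.6 and 219.7 in EKLF+/+ and 211.9, 292 and 231.2 in EKLF-/-. The highest EKLF+/+ value was that of replicate 2, the library with the most Itga2b and Itgb3 of its group. Macrophage markers were lower in 3 of 12 cases.

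Some markers of other lists were lower in EKLF-/-, as were Itga1, Col4a1 and Icam4, against 10.6% of all genes. Endothelial markers were lower in 4 of 6 cases, with sums of 185, 147.3 and 149.9 CPM in EKLF+/+ and 96.81, 81.27 and 74.76 in EKLF-/-, led by Stab2. Erythroid markers were lower in 4 of 8, with sums of 9155, 9281 and 10660 in EKLF+/+ and 5426, 3735 and 4874 in EKLF-/-, led by Slc4a1. The sums cover 9 of the 10 listed erythroid markers, and of these Hba-a1 was at 0 in all libraries. Reads without a unique alignment were not counted here, so this does not show that Hba-a1 RNA was absent. In the EKLF/GFP libraries Hba-a1 was the most abundant erythroid marker. Progenitor markers were lower in 4 of 6 cases and mesenchymal markers in 4 of 7. The part of these cells in the results of EKLF-/- was not tested.

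Single cells showed which classes of the F4/80+ preparation carried each transcript. There is 1 sample, so no test was made, and intervals at the 95% level cover counting error only. Cells were clustered without any integrin gene, and 13 of 16 clusters were named from marker lists by a rule that was set after the clusters were seen. They gave 1437 macrophage-like, 478 erythroid-like, 280 monocyte-like, 235 neutrophil-like, 87 megakaryocyte-like, 84 endothelial-like, 80 progenitor-like, 65 hepatoblast-like and 20 mast cell- or basophil-like cells, with 327 cells unnamed. Levels are UMIs of a gene as CPM of all UMIs of the class. The file holds 3096 barcodes, and 3093 with at least 200 detected genes were kept. The study reports fewer cells after a filter whose limits it does not give. A doublet caller marked 0 cells at its score threshold of 0.472, and no doublet was removed. This does not show that doublets are absent, and cells counted below with both subunits of a pair may include them. The unnamed cluster 7 had a median of 51641.5 UMIs per cell. Adgre1 had 544 CPM in macrophage-like cells, 105 in monocyte-like and 35.8 in erythroid-like cells.

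The beta2 family divided between granulocytes, monocytes and macrophages. Itgam was highest in neutrophil-like cells, at 128 CPM (interval 119 to 137), followed by monocyte-like cells at 92.9 (85.9 to 100.3). Macrophage-like cells had 17.5 CPM (15.9 to 19.2) and erythroid-like cells 1.09 (0.579 to 1.86). An Itgam UMI was found in 81.3% of neutrophil-like cells and 21.4% of macrophage-like cells, and in 3.08% of hepatoblast-like cells, which should lack it (median UMIs 23328, 14511 and 24071). Thinned to 5000 UMIs per cell, these shares were 51.9%, 8.37% and 1.67%. Within macrophage-like cells Itgam had 7.65, 12.8 and 31.5 CPM in clusters 0, 1 and 2, the highest in cluster 2, whose leading genes by fold were Cx3cr1, Dab2 and Fcrls.

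Itgal had another pattern. Macrophage-like cells had the most, 283 CPM (interval 277 to 290.0), and held 72.2% of all 10156 Itgal UMIs. Monocyte-like cells had 183 CPM, neutrophil-like cells 45.3 and hepatoblast-like cells 8.02. An Itgal UMI was found in 90.6% of macrophage-like and 21.5% of hepatoblast-like cells, and in 69.9% and 6.67% after thinning. In clusters 0, 1 and 2 the level was 229, 265 and 351 CPM. It was 657 (565 to 760.5) in the unnamed cluster 14 of 48 cells, whose macrophage markers were detected but whose cells had a median of 5381.5 UMIs.

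Itgb2, which all 3 of these alpha chains need, was carried by several leukocyte classes. The 20 mast cell- or basophil-like cells had 109 CPM (83.3 to 141) from 59 UMIs, neutrophil-like cells 84.3 (77.1 to 91.9), monocyte-like cells 57.4 (52 to 63.3) and macrophage-like cells 33.7 (31.5 to 36). Megakaryocyte-like cells had 27.7 CPM (22.4 to 33.8) and hepatoblast-like cells 3.01. In neutrophil-like cells, 166 of 191 cells with an Itgam UMI also had an Itgb2 UMI, 86.9%, against 38.6% of those without one, although the latter were deeper (median UMIs 20967 and 35594.5). At a resolution of 1.2 there were instead 123 granulocyte-monocyte progenitor-like cells (median UMIs 33936) and 114 neutrophil-like cells (13938), and the contrast was not computed within these. In macrophage-like cells the shares were 49.8% and 33.7%, there with more UMIs in the former (20433 and 12961). Itgax had 66 UMIs in all 3093 cells, 31 of them in monocyte-like cells at 4.42 CPM. No UMI of it was found in the 87 megakaryocyte-like cells, which allows up to 3.45% of cells with a UMI and sets no limit on cells that express the gene.

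The platelet pair was concentrated in megakaryocyte-like cells. Itga2b had 395 CPM there (interval 374 to 416) and Itgb3 233 (217 to 249.8), and these 87 cells held 74.8% and 83.6% of all UMIs of the genes. An Itga2b UMI was found in 86.2% of the cells but an Itgb3 UMI in 41.4%, against 6.15% and 4.62% of hepatoblast-like cells. At a resolution of 0.4 the megakaryocyte-like class held 243 cells, and the shares of its cells with Itga2b and Itgb3 were 42.4% and 16.5%. After thinning, the shares in megakaryocyte-like cells were 57.6% and 28.2%. Among megakaryocyte-like cells with Itga2b, 35 of 75 had Itgb3. Endothelial-like cells had 77.2 CPM of Itga2b (63 to 93.7) and only 3.79 of Itgb3 (1.23 to 8.83), from 102 and 5 UMIs, where megakaryocyte-like cells had 1367 and 808. Mast cell- or basophil-like cells had 61.2 CPM of Itga2b, and macrophage-like cells 3.44 of Itga2b and 1.16 of Itgb3.

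Itga5 and Itga6 were highest in endothelial-like cells, at 73.4 (59.6 to 89.6) and 223 CPM (198 to 249.5). Itga5 came next in hepatoblast-like cells at 41.6 CPM, and macrophage-like cells had 14.4 and erythroid-like cells 1.17. Itga6 had 84.6 CPM in megakaryocyte-like cells (75.2 to 94.8), 75.8 in macrophage-like (72.5 to 79.2) and 73 in monocyte-like cells (66.8 to 79.6), neighbours whose intervals overlap. Erythroid-like cells had 3.6. Macrophage-like cells, the most numerous, held 43.6% of Itga5 and 53.8% of Itga6 UMIs.

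Itga9 was a transcript of macrophage-like cells. They had 143 CPM (138 to 148) and 84% of its UMIs, followed by endothelial-like cells at 77.2 (63 to 93.7), and erythroid-like cells had 7.95. An Itga9 UMI was found in 77.4% of macrophage-like and 13.6% of erythroid-like cells (median UMIs 14511 and 21880), and in 48.6% and 3.18% after thinning. Clusters 0, 1 and 2 had 116, 179 and 119.9 CPM, the highest in cluster 1, which Cd5l, Marco, Fcna and Vcam1 led, and cluster 14 had 367. Itgb7 was nearly absent from macrophage-like cells, at 0.425 CPM. The 20 mast cell- or basophil-like cells had 158 CPM (126 to 195), monocyte-like cells 24.5 (21 to 28.5) and progenitor-like cells 14 (9.38 to 20.1). Monocyte-like cells held 54.4% of its 316 UMIs. In monocyte-like cells Itgb7 was found in 31.8% of cells with an Itga4 UMI and 34.1% of those without one, of which the former were deeper (median UMIs 25135 and 14981).

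**Figure D2:**
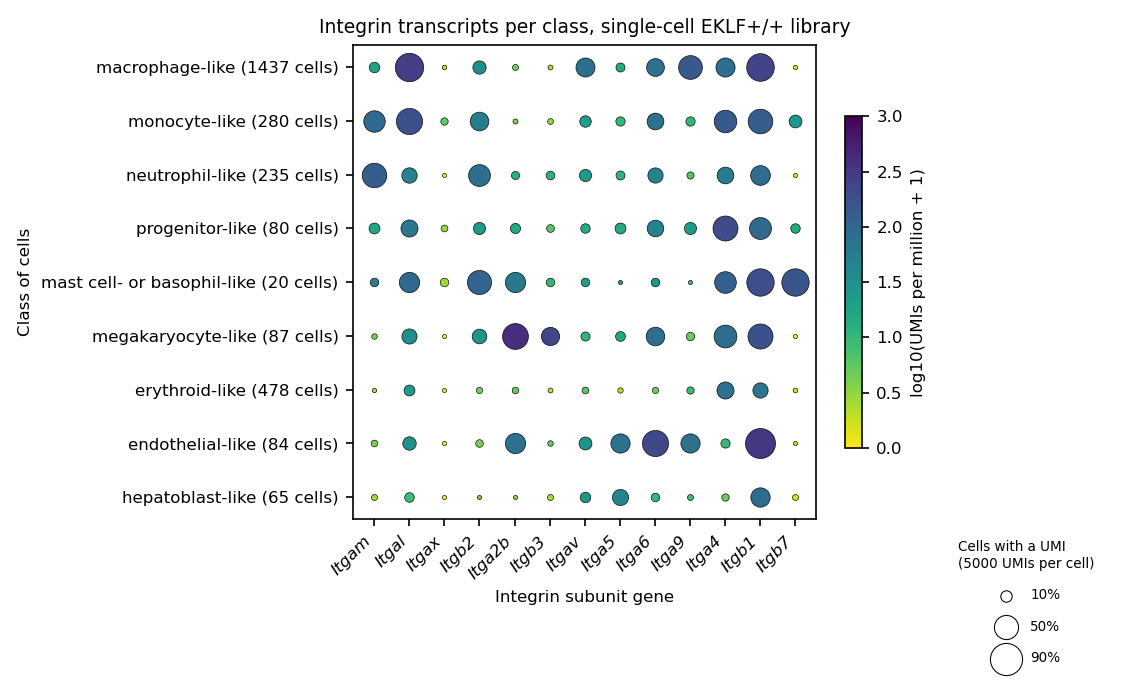
Integrin subunit transcripts in 9 classes of cells of the single-cell EKLF+/+ library, with color for log10 of CPM plus 1 and circle area rising with the share of cells with a UMI after thinning to 5000 UMIs per cell. Itga2b and Itgb3 are darkest in megakaryocyte-like cells (395 and 233 CPM), Itgal and Itga9 in macrophage-like cells (283 and 143) and Itgam in neutrophil-like cells (128).

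Rankings of the following genes are among the named classes. Itgb1 was highest in endothelial-like cells at 338 CPM, with 251 in macrophage-like and 67.4 in erythroid-like cells. The unnamed cluster 14 had 403 CPM of it. Itga4 ranged from 4.01 CPM in hepatoblast-like to 205 in progenitor-like cells, with 77.9 in erythroid-like cells. Itgav was highest in macrophage-like cells at 80 CPM, against 5.19 in erythroid-like cells, and its counter-receptor Icam4 had the reverse order, at 3.4 and 199.8. Vcam1 and Icam1 were highest in macrophage-like cells at 610.4 and 57 CPM, although the Icam1 interval overlapped that of endothelial-like cells. Cluster 14 had 1529 CPM of Vcam1, 163 of Icam1 and 240 of Itgav. Fn1 was highest in hepatoblast-like cells at 581 CPM. Fermt3 was highest in megakaryocyte-like cells at 403 CPM. Rasgrp2 had 219.8 in neutrophil-like and 218 in megakaryocyte-like cells, with overlapping intervals. Klf1 had 128 CPM in erythroid-like, 41 in megakaryocyte-like and 2.16 in macrophage-like cells. The 327 unnamed cells had 114 CPM of Klf1, with 38.8% of its UMIs, and 123 CPM of Icam4, with 31.6% of its UMIs.

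Likeness of pattern was measured as Pearson's r of log2(CPM + 10) over the 15 clusters with at least 30 cells, all from 1 library, among genes with at least 50 CPM in a cluster, and it is a description only. Between members the highest values were 0.851 for Itgam and Itgb2, 0.835 for Itgal and Itga9 and 0.819 for Itga2b and Itgb3. The clusters used include the unnamed cluster 14, of 48 cells with a median of 5381.5 UMIs. Itgal and Itga9 had their highest levels there, at 657 and 367 CPM, and values of r without this cluster were not computed. Ncf1 (0.968), Sorl1 and Clec12a were most like Itgam, and Ccdc88b (0.95), Adap1 and Vav1 most like Itgb2. Gpr65 (0.987), Fgd2 and Themis2 were most like Itgal. For Itga2b these were Gucy1a1 (0.964), Alox12 and Prkcq, and for Itgb3 F2rl2 (0.97), Ppbp and Rab27b. Itga5 was most like Ppp1r9a (0.949), Cfl2 and Maged2, and Itga6 most like Tspan14 (0.962), Dlgap4 and Gnaq. Sema6d (0.979), Slc43a2 and Sash1 followed Itga9. Itgb7, whose highest cluster had fewer than 30 cells and was not used, reached 24.5 CPM in the clusters used and Itgax 4.42, which was too sparse for their nearest genes to be read as alike.

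Promoter sequences of 6 of the 10 members, 250 bases before to 50 bases after a gene start of RefSeq (GRCm38.p6), were in the promoter table used, which did not hold Itgb2, Itgal, Itgb3 and Itga6. The RefSeq start of Itga2b lies inside the gene as placed above. The entry of Itga9 lies far inside that gene and was left out. The sequences were searched on both strands for CACCC, a core of Krüppel-like factor sites, AGATAA, a core of GATA sites, and GAGGAA, a core of PU.1 sites. Of all 32851 promoters, 57.5%, 11.2% and 28.3% hold these letters. Shown are 3 members that moved in EKLF/GFP+, Itgam and Itgax, which fell, and Itga2b, which rose, with matches to any of the 3 motifs on either strand in capitals. The Itgam promoter (chr7:128062390-128062689, plus strand) holds CACCC 3 times and GAGGAA 3 times, the Itgax promoter (chr7:128129300-128129599, plus strand) holds AGATAA once, and the Itga2b promoter (chr11:102469834-102470133, minus strand) holds CACCC once and GAGGAA 2 times. Itga5 held GAGGAA once and Itgb7 held CACCC 4 times and GAGGAA once. A match describes these letters and is not a bound site.
Itgam: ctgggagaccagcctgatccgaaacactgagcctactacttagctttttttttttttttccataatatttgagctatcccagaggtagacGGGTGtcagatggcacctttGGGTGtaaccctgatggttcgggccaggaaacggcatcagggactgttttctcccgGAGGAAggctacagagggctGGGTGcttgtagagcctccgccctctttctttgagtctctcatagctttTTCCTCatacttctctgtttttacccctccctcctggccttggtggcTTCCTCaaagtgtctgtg
Itgax: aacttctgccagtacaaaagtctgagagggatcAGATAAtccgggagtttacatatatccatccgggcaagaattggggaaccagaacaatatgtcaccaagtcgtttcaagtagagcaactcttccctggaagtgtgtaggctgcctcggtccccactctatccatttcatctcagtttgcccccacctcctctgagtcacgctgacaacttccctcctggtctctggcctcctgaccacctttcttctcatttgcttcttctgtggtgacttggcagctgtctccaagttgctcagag
Itga2b: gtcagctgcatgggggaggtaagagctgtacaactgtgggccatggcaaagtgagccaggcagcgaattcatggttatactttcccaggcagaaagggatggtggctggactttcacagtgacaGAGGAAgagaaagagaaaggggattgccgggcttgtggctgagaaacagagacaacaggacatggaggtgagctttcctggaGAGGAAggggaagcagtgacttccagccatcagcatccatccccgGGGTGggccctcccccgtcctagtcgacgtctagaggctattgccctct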

How the data were processed

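Raw counts per gene were deposited for EKLF+/+ and EKLF-/-, which the authors made with htseq-count from STAR alignments to mm10. Counts on no gene or without a unique alignment were left out of library sizes, and 27.31% to 32.78% of the reads in a file were on genes. For the EKLF/GFP libraries the deposited values are estimated counts per transcript from Salmon on the Ensembl GRCm38 transcriptome, with TPM computed by the authors' Salmon run. Estimated counts were summed here to genes of the GENCODE annotation of GRCm38 (115898 of 116546 transcripts joined, 99.89% of reads) and rounded. A signal table of counts normalized by the authors with tximport and DESeq2 was used in alternatives only. The deposited effective lengths per transcript entered 1 alternative, an offset for average length. Single-cell values are estimated counts of molecules that the authors made with Alevin on GENCODE GRCm38. Of the values above 0, 4.29% were not whole, and rounding kept 99.86% of molecules. In 1 count file 5 columns repeat other libraries and were not used, nor was a table of log2 raw counts. Which sequencer model ran a bulk library is not given.

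Each bulk comparison was fitted alone. Genes that reached 10 counts in 3 or more libraries were normalized by TMM. The quasi-likelihood test of edgeR 4.0.16 was run on them in both directions, and p-values were adjusted by Benjamini-Hochberg across the tested genes, with a threshold of 0.05. DESeq2 1.42.0, limma 3.58.1, Seurat 5.3.0, scanpy 1.11.5 (scrublet), matplotlib 3.10.9, pandas 2.3.3, scipy 1.17.1 and numpy 2.4.6 were used under Python 3.11.15 and R 4.3.3.

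Cells were clustered in Seurat with 3988 variable genes, integrins removed, 30 principal components and a resolution of 0.8. A cluster took the name of the marker list with the highest mean log2 ratio to the median cluster, if at least 3 of its markers had 10 UMIs and were 2-fold above the median cluster, 1 was among the top 10 genes by fold, and no other list had more there. This rule was set after the clusters were seen, and the promoter motifs were chosen after the results were seen. Sums of UMIs have exact Poisson intervals and shares of cells 95% Wilson intervals. A count of 0 cells was given an upper limit of 3 counts. Thinning drew 5000 UMIs per cell and left out 56 cells below that.

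The named genes were the members, Klf1, Adgre1, Itgb1, Itga4, Itgav, Vcam1, Icam4, Icam1, Fn1, Tln1, Fermt3 and Rasgrp2. To these were added, per comparison, list and direction, up to 3 called genes with the largest change, where groups did not overlap and the mean reached 100 normalized counts. Itgb2l in EKLF-/-, Col1a1 and Ccr2 were named after their values were seen. The members and lists were chosen with earlier results of these data known. Alternatives were DESeq2, its size factors, other filters on low counts, the replicate number as a block, each library left out, transcript length offsets, limma on the authors' table and, for single cells, other resolutions, filters and gene sets.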

Additional observations from a re-analysis of the deposited data

How the results depend on the processing

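Over the alternatives, the log2 differences of the 10 members kept their direction and their side of the threshold in 102 of 110 cases in EKLF-/- and in 130 of 140 in EKLF/GFP+. In EKLF-/- the number of members called higher was 0 with at least 10 counts in every library, with Itgb2 at a Benjamini-Hochberg adjusted p of 0.0517 from the quasi-likelihood test of edgeR (0.0205 to 0.169 over all alternatives), and 0 to 3 with each library left out, the 3 being Itgb2, Itgam and Itga2b without EKLF+/+ replicate 2. The number called lower stayed at 0. In EKLF/GFP+ 1 to 2 members were higher and 6 to 7 lower with each library left out, and limma on the authors' normalized counts plus 1 or plus 0.5 gave 6 lower, without Itgb7, and 2 higher. Direction turned for Itgax in EKLF-/- without EKLF+/+ replicate 2 (0.0303, against -0.34 without replicate 3) and for Itga9 in EKLF/GFP+ without EKLF/GFP+ replicate 1 (0.18, against -0.51 without replicate 3), neither past the test in any setting. The cause was not tested.

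With a library left out, all genes lower in EKLF-/- numbered 575 to 1889, with 576, 609, 632 and 575 without EKLF+/+ replicate 1, 2 or 3 or EKLF-/- replicate 3, and all genes higher in EKLF-/- numbered 346 to 1730, with 346, 417, 370 and 426 in the same order. Samples of different groups share only a replicate number: deviations of same-numbered libraries correlated at -0.00729, 0.0389 and 0.0894 in EKLF-/- and 0.024, -0.0552 and 0.0246 in EKLF/GFP+ over 5000 genes. With the replicate block 0 members were lower and 1 higher in EKLF-/-, and 7 lower and 2 higher in EKLF/GFP+, with all genes lower in EKLF-/- at 1037, all genes higher in EKLF-/- at 864, all genes lower in EKLF/GFP+ at 3422 and all genes higher in EKLF/GFP+ at 2361.

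In single cells, the class with the highest level was the same for 8 of 10 members at a resolution of 0.4 and with integrins kept in clustering, 9 at a resolution of 1.2 and after thinning, and 10 with at least 1000 detected genes and, as chosen after seeing the data, without the cells with the highest 5% of UMI totals. Itgb2 moved to neutrophil-like, Itgb7 to monocyte-like and, thinned, Itgax to mast cell- or basophil-like cells. Only classes named at the main setting were compared. Unnamed cells, and the granulocyte-monocyte progenitor-like cells at a resolution of 1.2, were therefore left out of this comparison. At a resolution of 0.4 and with integrins kept, no cluster was named mast cell- or basophil-like. Shares of cells moved beyond their interval in 79 of 90 cases after thinning. Leaving out cells that scrublet marks was not run, since it marked 0.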
